A study of Mus musculus with 6 samples.

Results

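Messenger RNA levels of 9 cytosolic chaperones and of the transcription factor Hsf1 were examined in 6 mouse liver libraries. The 10 genes were chosen by name (Hspa8, Hspa4, Hspa1a, Hspa1b, Hsp90aa1, Hsp90ab1, Hsph1, Dnaja1, Dnajb1 and Hsf1), and each was found once by its symbol among the 24927 rows of every table. In the mouse annotation (GENCODE M21) Hspa1a, Hspa1b and Hsp90ab1 lie on chromosome 17, Dnaja1 on 4, Hsph1 on 5, Dnajb1 on 8, Hspa8 on 9, Hspa4 on 11, Hsp90aa1 on 12 and Hsf1 on 15. The study asks what loss of Cdkl3, a kinase of the cyclin-dependent kinase-like family, does to liver transcripts. The first group of 3 libraries is labelled wild type and the other 3 are labelled Cdkl3-/-, called here labelled knockout. All are labelled as whole liver of male C57BL/6 mice, 10 months old, and the series describes a chow diet. The labels do not name the allele or any driver of the deletion, and they do not say in words that each library came from its own mouse. The p-values below therefore measure the spread between these libraries. Values are FPKM, fragment counts scaled to transcript length and library depth, so levels of different genes are compared per length.

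Cytosolic chaperones keep proteins soluble and fold them with the help of ATP. HSP70 proteins bind short unfolded stretches, J-domain proteins of the HSP40 class deliver clients and start ATP hydrolysis, nucleotide exchange factors of the HSP110 class release ADP, and HSP90 acts later on partly folded clients such as kinases and steroid receptors. Some genes of each class are transcribed in unstressed cells and others are induced by heat or misfolded protein through HSF1, which binds repeated GAA units called heat shock elements. In the liver this system works beside the secretory chaperones of the endoplasmic reticulum.

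Promoter windows show the heat shock element layout and how alike the Hspa1a and Hspa1b copies are. RefSeq windows on GRCm38.p6 were matched by symbol for 6 of the 10 genes, and the 250 bases before to 30 bases after each annotated transcript start were searched. Capitals mark matches to GAANNTTC or TTCNNGAA, facing pairs of heat shock units that read the same on both strands. The windows shown are Hspa1a (chr17:34972127-34972406, minus strand), Hspa1b (chr17:34959209-34959488, minus strand), Hsph1 (chr5:149636286-149636565, minus strand) and Dnaja1 (chr4:40722218-40722497, plus strand), the 4 genes in which a pair was found.
Hspa1a promoter: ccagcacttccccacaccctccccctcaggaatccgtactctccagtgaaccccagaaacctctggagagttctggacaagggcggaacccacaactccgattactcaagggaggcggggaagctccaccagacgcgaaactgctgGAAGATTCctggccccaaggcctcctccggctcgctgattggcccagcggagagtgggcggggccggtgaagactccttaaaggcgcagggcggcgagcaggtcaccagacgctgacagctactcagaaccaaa
Hspa1b promoter: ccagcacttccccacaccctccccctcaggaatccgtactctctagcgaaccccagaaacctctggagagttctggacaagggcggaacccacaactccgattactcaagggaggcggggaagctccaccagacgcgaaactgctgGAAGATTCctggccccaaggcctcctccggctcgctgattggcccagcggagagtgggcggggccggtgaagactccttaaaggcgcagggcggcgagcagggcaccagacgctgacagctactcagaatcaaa
Hsph1 promoter: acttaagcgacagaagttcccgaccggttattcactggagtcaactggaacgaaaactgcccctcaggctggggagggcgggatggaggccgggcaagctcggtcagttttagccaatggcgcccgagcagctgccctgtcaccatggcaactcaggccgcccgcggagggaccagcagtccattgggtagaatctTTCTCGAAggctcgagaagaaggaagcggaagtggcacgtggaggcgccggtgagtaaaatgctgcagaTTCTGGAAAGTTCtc
Dnaja1 promoter: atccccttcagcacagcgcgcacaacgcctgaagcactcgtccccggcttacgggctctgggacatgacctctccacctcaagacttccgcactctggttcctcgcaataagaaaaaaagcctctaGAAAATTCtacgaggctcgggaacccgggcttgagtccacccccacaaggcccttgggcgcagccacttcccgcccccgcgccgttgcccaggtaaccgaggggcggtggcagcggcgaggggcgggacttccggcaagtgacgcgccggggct
The Hsph1 window is the one with 3 units in a row, TTC, GAA and TTC with 2 bases between neighbours, at positions 16 to 28 after the start, where the TTCNNGAA match at 16 to 23 and the GAANNTTC match at 21 to 28 overlap. It also holds a pair at -54 to -47. A second annotated Hsph1 start, 21 bases upstream, gives a window of 280 bases that holds only this last pair. In the Dnaja1 window the pair lies at -124 to -117, and the windows of its 2 other annotated starts hold none. Windows of Hspa4 and Dnajb1 hold no match, and Hspa8, Hsp90aa1, Hsp90ab1 and Hsf1 were not analysed here for promoter sequence. Of all 32851 windows of this length, 14.2% hold a pair and 0.563% hold 3 units. These are shares of windows and not of genes, and the 6 genes searched have 10 windows. The Hspa1a and Hspa1b windows are 98.6% identical, with 4 differences counted from the first base of the window, Hspa1a base first: C44T, T47C, T249G and C276T. Both hold the pair at -104 to -97.

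Several facts of the libraries touch all results below. The wild type label and the knockout label also part the libraries by sex-linked genes: Xist, which is made from the inactive X chromosome, ran from 192 to 292 FPKM under the wild type label and from 0.0125 to 0.0273 FPKM under the knockout label. The Y-linked gene Ddx3y ran from 0.0694 to 0.207 and from 38.2 to 50.8 FPKM in the same order. The libraries labelled wild type thus show a female pattern, against their male label, and those labelled knockout a male one. The sex these genes show and the labelled genotype therefore cannot be told apart. Cdkl3 itself measured 0.0883 to 0.166 FPKM and 0.0761 to 0.195 FPKM in the same order (two-sided exact permutation test, p = 0.8), a gene-wide value that does not check a deletion of part of the gene. Knockout replicate 1 held 5264 FPKM of the kidney transcript Kap, against at most 5.72 FPKM in the other libraries. Recovered depth was 20460000 to 48610000 reads or read pairs per library, so 1 read on a 1 kb transcript was worth 0.0206 to 0.0489 FPKM. The hepatocyte list (8 usable genes of 10, all reaching 1 FPKM in some library, none at 0 in all) summed to 1457 to 1803 FPKM under the wild type label and 2367 to 3307 FPKM under the knockout label. The stellate cell list (5 usable of 7, of which 3 reached 1 FPKM) summed to 76.1 to 130 and 21.3 to 32.2 FPKM, and the endothelial list (7 usable of 7, of which 3 reached 1 FPKM) to 9.97 to 11.3 and 5.48 to 5.92 FPKM. The kidney tubule list (10 usable of 14, of which 6 reached 1 FPKM) summed to 0.432 to 1.49 FPKM under the wild type label and to 5285, 4.38 and 5.89 FPKM in knockout replicates 1 to 3. The Kupffer cell, cholangiocyte and lymphocyte lists overlapped between the groups. The erythroid list (3 usable of 5, of which 1 reached 1 FPKM) did not. It summed to 0.424 to 0.585 FPKM under the wild type label and 0.803 to 1.57 FPKM under the knockout label. The part of these differences in the chaperone results was not tested, and in pieces of tissue fewer cells of a type and less RNA per cell cannot be told apart.

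Among the 10 genes, Hspa8, Hsp90ab1, Hsph1 and Dnaja1 rose in the libraries labelled knockout, Hspa4, Hsp90aa1 and Hspa1b did not pass the test, and Dnajb1, Hspa1a and Hsf1 were too low for the main fit. The fit was limma on log2(FPKM + 1) with Benjamini-Hochberg adjustment over 5673 genes that reached 1 FPKM in at least 3 libraries, and a call needs an adjusted p under 0.05. Of the 7 chaperones tested, 4 were called higher and 0 lower, and at an unadjusted p under 0.05 the counts were 5 and 0. In the same fit of all tested genes 33.7% were called higher and 20.4% lower, so the calls on these 7 genes stand against a background in which 54.1% of genes were called. The median log2 difference was 1.01 over the 7 chaperones, the value of Hspa1b, and 0.12 over all tested genes. Centring each library on its median lowered every difference by 0.28. It left 3 chaperones higher and 0 lower, and over all tested genes it changed 1911 higher and 1157 lower to 1443 and 1891.

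The filter itself bears on these counts and on the median of the 7 chaperones. Hsp90ab1 and Hsph1 stayed below 1 FPKM in all 3 libraries labelled wild type and passed only because of the libraries labelled knockout. Of the 631 tested genes with such low values under the wild type label, 614 were called higher, or 97.3%. Hspa8 reached 1 FPKM in 1 library labelled wild type and 3 labelled knockout, so it too needed the latter to pass. Hspa1b reached it in 1 library labelled wild type and 2 labelled knockout, and likewise needed the latter. Only Hsp90aa1, Dnaja1 and Hspa4 passed on the libraries labelled wild type alone, with log2 differences of 0.49, 0.90 and 0.066. In all 3 libraries labelled knockout, 5 of the 10 genes lay above all 3 libraries labelled wild type, and 4 of the 7 above the filter. The same held for 27.7% of all genes above 0 FPKM and for 38.0% of the genes above the filter. No chaperone lay wholly below, as 10.1% and 25.8% of genes did in these sets. The plot of FPKM by library shows the 10 genes in order of their level in the libraries labelled knockout.

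**Figure D1:**
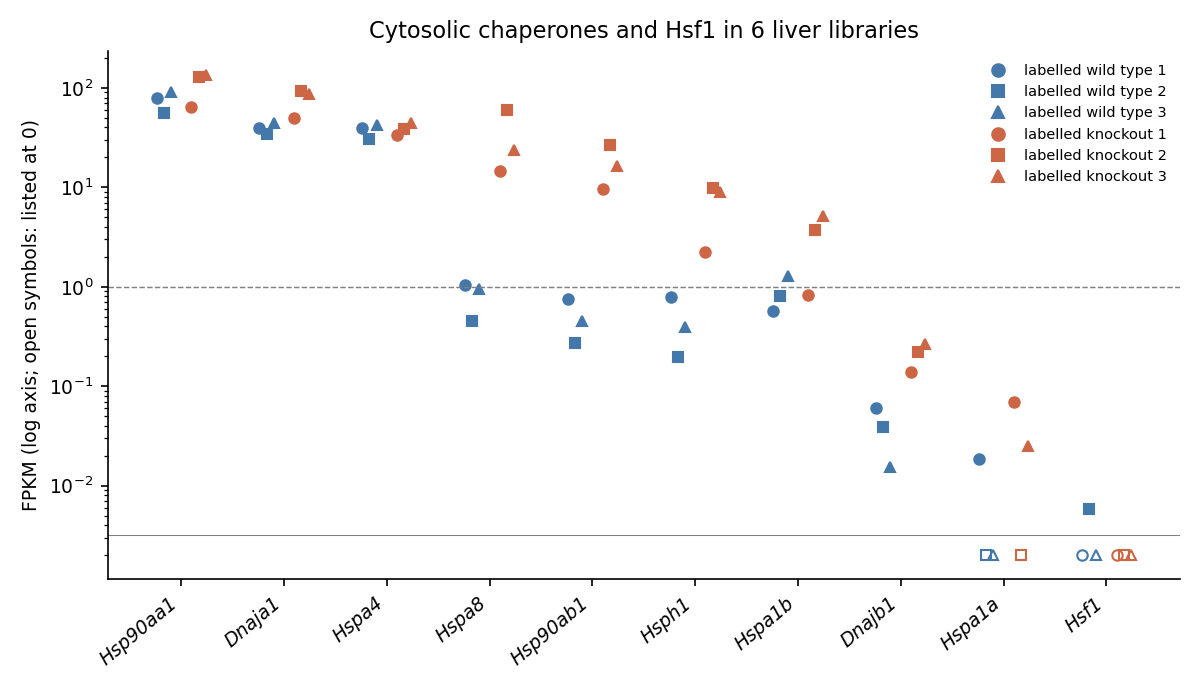
FPKM of each gene in each of the 6 libraries on a log axis, with blue symbols for libraries labelled wild type and orange symbols for those labelled knockout, shapes for replicate numbers, and open symbols for values listed at 0. The dashed line marks 1 FPKM: Hsp90aa1, Dnaja1 and Hspa4 lie above it in 6 of 6 libraries, Hsp90ab1 and Hsph1 rise across it, Hspa8 lies above it in 1 library labelled wild type and in all 3 labelled knockout, and Dnajb1, Hspa1a and Hsf1 stay below it. Hspa1b lies above it in 1 library labelled wild type and in 2 labelled knockout.

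Hspa8, an HSP70 gene, had the widest log2 difference of the set. It encodes HSC70, the HSP70 that cells make without stress and that folds new chains and strips clathrin from vesicles. Hspa8 measured 1.05, 0.454 and 0.943 FPKM in wild type replicates 1 to 3 and 14.5, 59.5 and 23.7 FPKM in knockout replicates 1 to 3. The groups did not overlap, and the libraries labelled knockout themselves spread widely, with replicate 2 highest and replicate 1 lowest. The values correspond to 162, 95 and 83 reads in the first group and to 1528, 10120 and 2724 reads in the second. Group means were 0.814 ± 0.316 and 32.6 ± 23.8 FPKM (SD, n = 3), a ratio of 40.0. The difference in means of 31.7 FPKM was 18.3 FPKM without knockout replicate 2. The log2 difference was 3.99 (SE 0.46, limma adjusted p = 0.00049), the 37th largest rise of 5673, and it ran from 3.45 to 4.98 over 16 alternative settings, all past the threshold. Annotated copies matter for this gene: 51.4% of the 50-base stretches of its longest transcript also occur in other annotated genes, mostly the predicted gene Gm15459, so how the counting placed such reads affects the level.

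The stress-induced HSP70 pair went differently. Hspa1b measured 0.574, 0.80 and 1.29 FPKM in wild type replicates 1 to 3 and 0.829, 3.70 and 5.21 FPKM in knockout replicates 1 to 3. Knockout replicates 2 and 3 lay above each library labelled wild type, and knockout replicate 1 lay among them. Its log2 difference of 1.01 (SE 0.43, 95% interval 0.0045 to 2.02) missed the threshold (limma adjusted p = 0.082). Without knockout replicate 1, the library with the kidney transcripts, it was 1.53 (limma adjusted p = 0.0013), and once the trends on GC content and transcript length had been removed within each library it was 0.23 (limma adjusted p = 0.67). Hspa1a, its neighbour on chromosome 17, was listed at 0.0187 FPKM in wild type replicate 1 and at 0.0687 and 0.0252 FPKM in knockout replicates 1 and 3, and at 0 in the other 3 libraries. These are 2 reads in all in the libraries labelled wild type and 7 in those labelled knockout, a ratio of read rates of 4.05 with a 95% exact interval of 0.771 to 40.0 that covers counting error only. The coding copies are nearly identical, as their promoters are: 60.3% of the 50-base stretches of Hspa1a occur in other genes, 58.8% in Hspa1b. Reads can therefore be split between the copies or dropped, and the level of each copy is uncertain.

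Of the HSP110 class, Hsph1 rose and Hspa4 did not pass the test. Hspa4 encodes a nucleotide exchange factor for HSP70 and measured 39.1, 30.4 and 42.1 FPKM in wild type replicates 1 to 3 and 33.7, 38.6 and 44.3 FPKM in knockout replicates 1 to 3. The ranges overlapped over most of their length. Its log2 difference of 0.066 (SE 0.19, 95% interval -0.37 to 0.50) did not pass (limma adjusted p = 0.79), and it lay below 0, at -0.22, after median centring and after removal of the trend on GC content and length. Hsph1, the heat-inducible member of the class (also called HSP105), measured 0.791, 0.195 and 0.397 FPKM in wild type replicates 1 to 3 and 2.25, 9.96 and 8.96 FPKM in knockout replicates 1 to 3. All 3 libraries labelled knockout were above the others, with knockout replicate 1 the lowest of them. The log2 difference of Hsph1 was 2.30 (SE 0.45, limma adjusted p = 0.0046), and it was called under each of 15 alternative settings. The 50-base stretches of Hspa4 and of Hsph1 were found in no other annotated gene.

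HSP90 relatives were also split, but here the constantly made form rose and the stress-inducible form did not pass the test. Hsp90aa1, the stress-inducible alpha form, was the highest of the 10 genes in each library, with 79.7, 55.4 and 91.1 FPKM in wild type replicates 1 to 3 and 63.7, 129 and 136 FPKM in knockout replicates 1 to 3. Knockout replicates 2 and 3 were above all libraries labelled wild type and knockout replicate 1 was below 2 of them. Its log2 difference of 0.49 (SE 0.32, 95% interval -0.26 to 1.23) did not pass (limma adjusted p = 0.23). Without knockout replicate 1 it was 0.83 (limma adjusted p = 0.025). Hsp90ab1, the beta form that most cells make constantly, measured 0.750, 0.274 and 0.456 FPKM in wild type replicates 1 to 3 and 9.52, 26.8 and 16.4 FPKM in knockout replicates 1 to 3. The groups were apart by more than a factor of 10 at their nearest values. Group means were 0.493 ± 0.240 and 17.6 ± 8.70 FPKM (SD, n = 3), a ratio of 35.6. The log2 difference was 3.54 (SE 0.33, limma adjusted p = 0.00018), and it was called under each of 15 alternative settings, with values from 2.77 to 4.85. The beta form thus made up 0.492% to 0.932% of the summed HSP90 FPKM in the first group and 10.8% to 17.2% in the second. Of the Hsp90aa1 transcript 58.5% of 50-base stretches occur in other annotated genes, mostly the predicted gene Gm12346, against 4.49% for Hsp90ab1.

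The J-domain proteins Dnaja1 and Dnajb1 stood far apart in level. Dnaja1, which serves HSC70 in the cytosol, measured 39.3, 34.2 and 44.4 FPKM in wild type replicates 1 to 3 and 49.2, 93.7 and 86.3 FPKM in knockout replicates 1 to 3. The groups did not overlap, although knockout replicate 1 lay close to wild type replicate 3. The log2 difference was 0.90 (SE 0.26, limma adjusted p = 0.020). This call did not hold in every setting: the limma adjusted p was 0.059 after median centring, 0.062 without a filter, and 0.072, 0.067 and 0.063 without wild type replicate 2, knockout replicate 2 and knockout replicate 3. Dnajb1, the main heat-inducible HSP40, measured 0.0606, 0.0385 and 0.0153 FPKM in wild type replicates 1 to 3 and 0.140, 0.221 and 0.269 FPKM in knockout replicates 1 to 3. These correspond to 7, 6 and 1 reads and to 11, 28 and 23 reads, and the ratio of pooled read rates was 5.13 (95% exact interval 2.84 to 9.92, counting error only). The FPKM groups did not overlap. In a limma fit of all 20529 genes above 0 FPKM its log2 difference was 0.22 (SE 0.06, limma adjusted p = 0.042), on a scale that understates changes at such levels, and 15.4% of genes were called higher and 5.09% lower in that fit. The call was lost under 9 of 12 alternative settings, among them median centring (adjusted p = 0.19), the trend removal (adjusted p = 0.10) and leaving out any library other than knockout replicate 1.

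Hsf1, the factor that turns on heat shock genes, was listed at 0.00580 FPKM in wild type replicate 2, which is 2 reads, and at 0 in the other 5 libraries. A count of 0 allows up to 3 reads. On this transcript 3 reads are worth 0.00869 to 0.0207 FPKM depending on the library. The lowest of these values belongs to wild type replicate 2, the deepest library, which was not at 0. No fold is given for it. Gapdh, a gene used by most cells and chosen here after its values were seen, was also listed at 0 in 2 libraries and reached at most 0.237 FPKM, so a value near 0 in these tables does not show that a gene was silent.

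**Figure D2:**
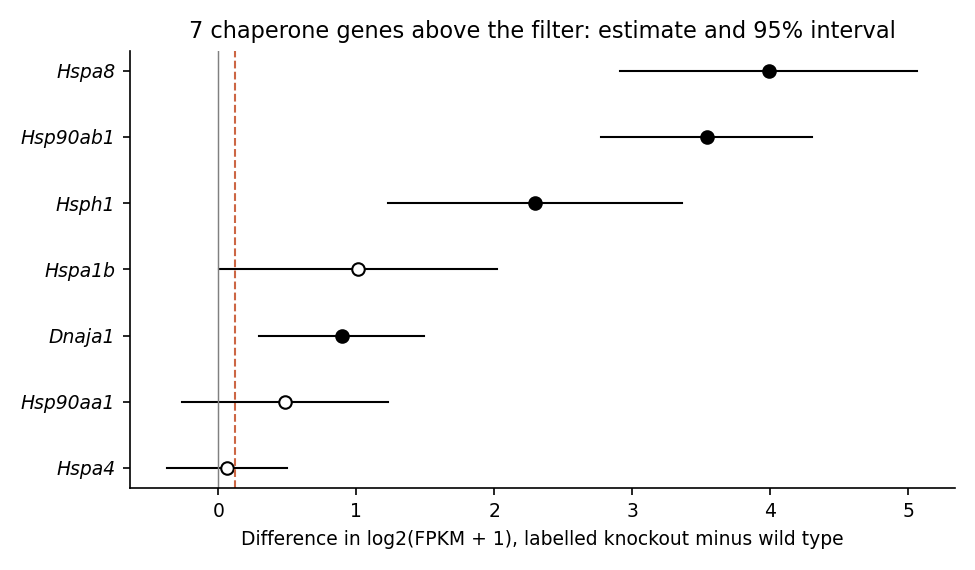
Difference in log2(FPKM + 1) between libraries labelled knockout and wild type for the 7 chaperones in the main fit, with 95% intervals as bars (limma, 3 libraries per group). Filled points passed an adjusted p of 0.05, open points did not, and the dashed line is the median of all tested genes at 0.12: Hspa8 and Hsp90ab1 lie farthest to the right and Hspa4 next to the line.

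Ratios between relatives within a library do not depend on how that library was scaled. A trend on GC content, or the placing of reads from shared stretches, does not cancel in them, and no ratio was adjusted for either. Hsp90aa1 holds 43.7% G and C and Hsp90ab1 51.0%, and Hspa1b holds 58.1% against 45.9% in Hspa8. The FPKM of Hsp90aa1 was 106, 202 and 200 times that of Hsp90ab1 in wild type replicates 1 to 3 and 6.69, 4.83 and 8.24 times in knockout replicates 1 to 3. The sum of Hspa1a and Hspa1b was 0.567, 1.76 and 1.37 times Hspa8 in the first group and 0.0620, 0.0622 and 0.221 times in the second. Hsph1 was 0.0202, 0.00642 and 0.00943 times Hspa4 in the libraries labelled wild type and 0.0667, 0.258 and 0.202 times in those labelled knockout. In all of these the groups were separate. The differences in mean log2 ratio, knockout minus wild type, were -4.66, -3.55 and 3.82 in this order. Dnajb1 over Dnaja1 differed by 1.71, but by 0.25 when 0.1 FPKM was added to both sides, so that ratio rests on a few reads. Each of the 4 ratios had p = 0.1 in a two-sided exact permutation test, the smallest value that 3 against 3 libraries allow, and an adjusted p of 0.16 over 14 such tests of single values. Because 3 against 3 cannot pass 0.05, these tests could not have reached the threshold. Of the 10 genes tested alone, Hspa8, Hsp90ab1, Hsph1, Dnaja1 and Dnajb1 also stood at the exact p of 0.1.

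**Figure D3:**
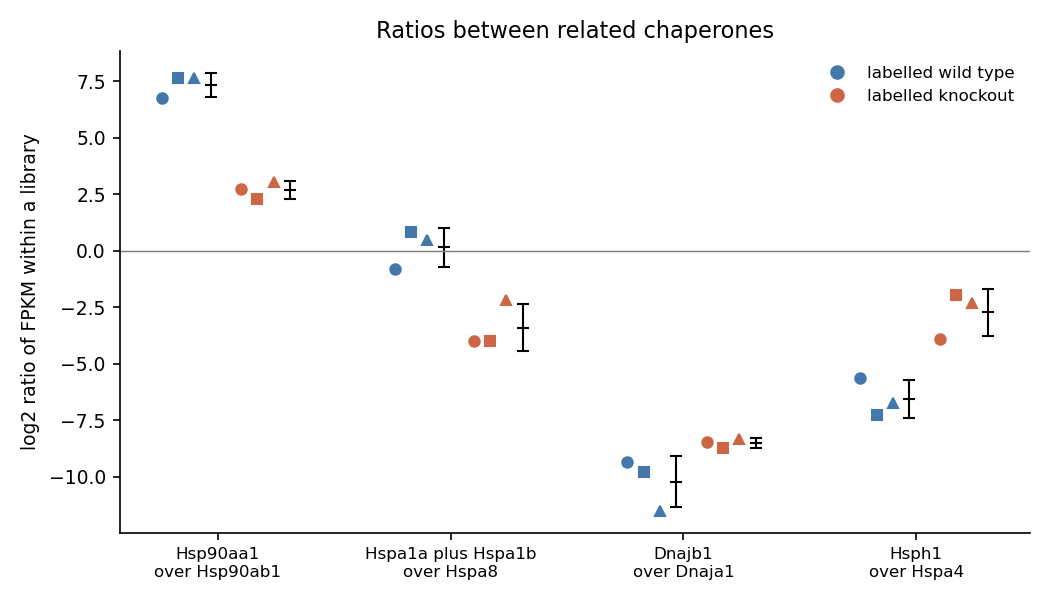
Log2 ratio of FPKM between related chaperones within each library, with blue points for libraries labelled wild type and orange points for those labelled knockout, and black bars for the group mean ± SD (n = 3). Hsp90aa1 over Hsp90ab1 is near 7.34 on average in the first group and 2.69 in the second, and in each of the 4 ratios the groups are apart.

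The make-up of the set changed with these ratios. Hsp90aa1, Dnaja1 and Hspa4 together gave 98.0%, 98.5% and 98.3% of the summed FPKM of the 10 genes in wild type replicates 1 to 3. They gave 84.3%, 72.3% and 83.0% in knockout replicates 1 to 3. Hspa8 alone went from at most 0.648% of the sum to 8.33%, 16.4% and 7.39%. The sum of the 10 genes was 161, 122 and 181 FPKM in wild type replicates 1 to 3 and 174, 362 and 321 FPKM in knockout replicates 1 to 3, so knockout replicate 1 fell inside the range of the libraries labelled wild type.

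Levels within the set tended to follow base composition, which the choice of genes did not use. The 3 abundant transcripts, Dnaja1, Hsp90aa1 and Hspa4, hold 41.2%, 43.7% and 46.6% G and C in their longest annotated form. Hspa8 and Hsph1 lie at 45.9% and 47.3%, Hsp90ab1 at 51.0%, and Dnajb1, Hsf1, Hspa1b and Hspa1a at 52.7%, 53.4%, 58.1% and 58.9%. Dnajb1, Hsf1 and Hspa1a were nearly absent. Hspa1b, at a mean of 0.888 FPKM under the wild type label, lay above Hspa8 (0.814), Hsp90ab1 (0.493) and Hsph1 (0.461). Under the knockout label, at 3.24 FPKM, it lay below each of them. Spearman's rho between GC content and mean FPKM was -0.75 in the libraries labelled wild type and -0.90 in those labelled knockout. This is a description over 10 genes that share the same libraries.

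Over the 5539 tested genes with a known GC content and length, the difference between groups also moved with GC content. Of genes under 40% GC 11.7% were higher and 39.8% lower. At 40 to 45% GC 25% were higher and 22.4% lower, at 45 to 50% GC 44.8% and 13.0%, and at 50 to 55% GC 55.5% and 11.5%. Above 55% GC, where Hspa1b lies among 105 tested genes, the shares were 48.6% and 7.62%. From the lowest to the highest of these GC ranges, 36.4%, 42.2%, 30.8%, 15.5% and 4.73% of genes above 0 FPKM passed the filter. The part of the filter in this pattern was not tested. With the trends on GC content and length removed in each library, the log2 differences of Hspa8, Hsp90ab1, Hsph1 and Dnaja1 were 3.69, 2.77, 2.05 and 1.08 (limma adjusted p = 0.00074, 0.00035, 0.0086 and 0.010). The same 4 genes were called in that fit.

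**Figure D4:**
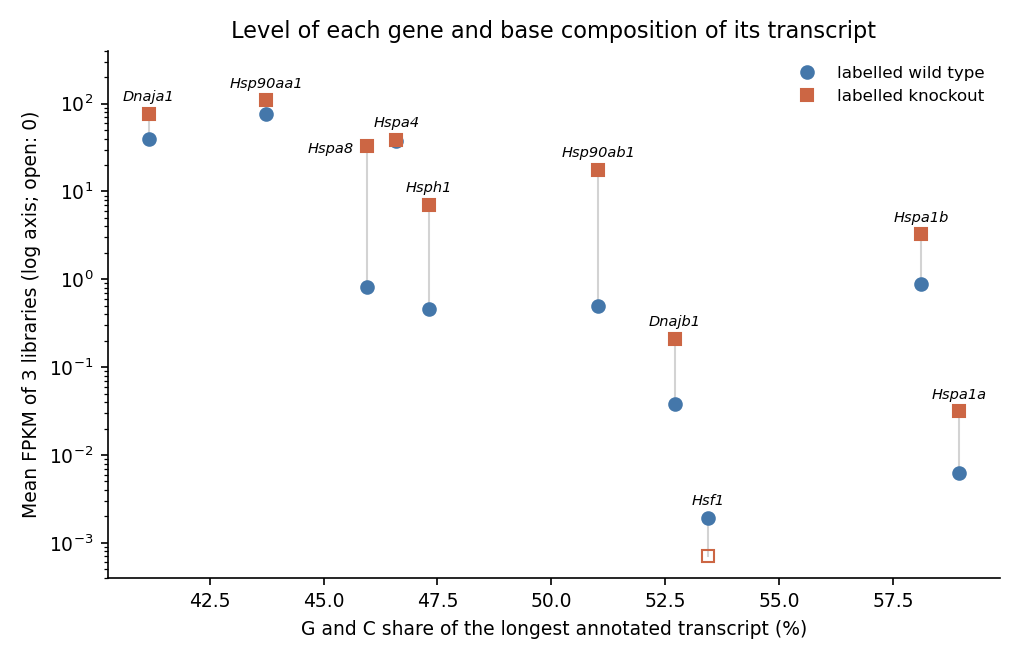
Mean FPKM of 3 libraries for each gene (log axis, blue circles for libraries labelled wild type, orange squares for those labelled knockout, open for a mean of 0) against the share of G and C in its longest annotated transcript. Levels tend to fall from left to right in both groups, though not at each step, and Hspa8 and Hsp90ab1 show the widest gaps between circle and square.

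Among genes above the filter, the profile of Hspa8 over the 6 libraries was shared closely with genes of several kinds. The 5 with the highest Pearson r of log2(FPKM + 1) were Adh1 (alcohol dehydrogenase), the prefoldin subunit Pfdn1, Nsa2 (a ribosome assembly factor), Parp3 and the ribosomal protein Rps3a1, with r from 0.9992 to 0.9997. Of 5067 genes compared, 859 had an r over 0.95, so a profile of this kind was common. Adh1 measured 0.733, 0.368 and 0.679 FPKM in wild type replicates 1 to 3 and 6.88, 18.3 and 9.40 FPKM in knockout replicates 1 to 3. Within the set, Hsp90ab1 was nearest to Hspa8 (r = 0.9965) and Hspa4 farthest (r = 0.29), over 6 libraries.

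Partners of these chaperones, chaperones of other compartments and immediate early genes were read from 9 lists with 105 genes. Of these genes 93 had a usable row and 48 passed the filter. Together 22 were called higher and 6 lower, against 33.7% higher and 20.4% lower among all tested genes, and the plot of log2 differences by list shows each of them. Among HSP70 relatives and nucleotide exchange factors 9 genes of 15 were tested, 1 rose and 3 fell. The exchange factor Bag1 rose from 1.00 ± 0.628 to 34.4 ± 9.12 FPKM (SD, n = 3, limma adjusted p = 5.7e-05). The testis-rich HSP70 Hspa2 fell from 2.34 ± 0.346 to 0.689 ± 0.0783 FPKM, the HSC70-binding protein St13 from 58.8 ± 4.39 to 29.2 ± 1.59 FPKM and Bag5 from 9.15 ± 2.19 to 3.68 ± 0.301 FPKM (limma adjusted p = 0.00095, 0.0012 and 0.0026). Without knockout replicate 1 the counts of this list were 3 higher and 4 lower.

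Of 18 HSP90 co-chaperones 6 were tested, 1 rose and 0 fell by limma, with the same counts at an unadjusted p under 0.05. Sugt1 rose from 4.30 ± 0.557 to 7.0 ± 1.36 FPKM (limma adjusted p = 0.030), and this call was lost after median centring, when 0 of 6 passed, and likewise with quantile normalization, with the replicate number as a block, and without wild type replicate 2 or 3 or knockout replicate 2 or 3. With the trend on GC content and length removed, and also without knockout replicate 1, 3 were higher, and without wild type replicate 1 2 were. The most abundant tested one, Ptges3 (the p23 protein), chosen after its values were seen, had a log2 difference of -0.20 (SE 0.18).

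Other J proteins, listed here as cytosolic without a check of where each one acts, rose in 7 of 10 tested cases and fell in 1. Dnajc7, Dnajc9, Dnajc5 and Dnajc8 had the smallest adjusted p. They were between 0.132 and 0.602 FPKM on average in the libraries labelled wild type and between 1.63 and 3.64 FPKM in those labelled knockout. Among the 10 tested J proteins, 3 (Dnajc7, Dnajc9 and Dnajc8) did not reach 1 FPKM in any library labelled wild type, and of such genes 97.3% were called higher. Dnaja2, the close relative of Dnaja1 and also chosen after its values were seen, went the other way, from 120 ± 13.5 to 70.6 ± 7.63 FPKM (SD, n = 3, limma adjusted p = 0.0075), and 2 were lower after median centring or without knockout replicate 3. None of the 5 usable small heat shock protein genes, out of 8 listed, passed the filter.

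Of the other heat shock factors and their binding proteins, 3 were tested. Hsbp1, which binds and restrains HSF1, rose from 0.946 ± 0.543 to 4.02 ± 0.924 FPKM (limma adjusted p = 0.0022), and Hsf2, chosen after its values were seen, stood at 13.2 ± 3.70 and 11.3 ± 0.264 FPKM (limma adjusted p = 0.53). By limma 0 fell, also at an unadjusted p under 0.05, and without knockout replicate 1 the count higher was 2. In the cytosolic folding ring TRiC and its feeder prefoldin 5 of 9 rose and 2 fell. Cct8 rose from 12.6 ± 2.19 to 45.9 ± 12.7 FPKM and Pfdn1, already named, from 0.480 ± 0.208 to 6.47 ± 2.96 FPKM. Cct3 and Pfdn4 also rose, from 0.125 ± 0.0699 to 3.15 ± 1.58 and from 0.281 ± 0.119 to 1.60 ± 0.561 FPKM. Pfdn1, Cct3 and Pfdn4 did not reach 1 FPKM in any library labelled wild type, and of such genes 97.3% were called higher. Subunits of one ring thus differed in direction: Cct2, chosen after its values were seen, fell from 20.1 ± 2.25 to 12.5 ± 0.792 FPKM (limma adjusted p = 0.010). The prefoldin subunit Vbp1, chosen in the same way, fell from 51.5 ± 15.2 to 23.5 ± 0.80 FPKM, and after the trend removal 1 gene of this list was lower.

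Chaperones of other compartments were also read. Of 12 listed mitochondrial genes 10 had a usable row and only 3 were tested. Of these 2 rose, with the mitochondrial HSP70 Hspa9 going from 5.70 ± 1.76 to 63.6 ± 13.5 FPKM (limma adjusted p = 7.8e-05) and the protease subunit Clpx from 7.34 ± 0.821 to 43.6 ± 5.01 FPKM. Of 5 tested endoplasmic reticulum genes 3 rose, with the HSP70 Hspa5 at 10.9 ± 6.95 and 575 ± 411 FPKM, the HSP90 Hsp90b1 at 95.9 ± 34.6 and 532 ± 256 FPKM and Dnajb11 at 0.184 ± 0.111 and 3.95 ± 2.30 FPKM (limma adjusted p = 0.0043, 0.0033 and 0.0035). Dnajb11 was likewise below 1 FPKM in each of the 3 libraries labelled wild type. In both lists 0 fell by limma, also at an unadjusted p under 0.05. Without knockout replicate 1 the counts were 2 higher and 1 lower of the mitochondrial genes and 5 higher of those of the endoplasmic reticulum. Immediate early genes, which respond within minutes to handling and other stimuli, were read as a check on tissue collection. Of 10 listed 8 had a usable row and only 3 were tested. Of these 2 were higher, Dusp1 with 1.53 ± 0.542 and 15 ± 11.3 FPKM and Fos with 1.08 ± 0.393 and 11.0 ± 8.02 FPKM (limma adjusted p = 0.0068 and 0.031), and 0 of 3 passed after the trend removal. Leaving out any 1 library other than knockout replicate 2 left 1 of 3. The part of collection in the chaperone differences was not tested.

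**Figure D5:**
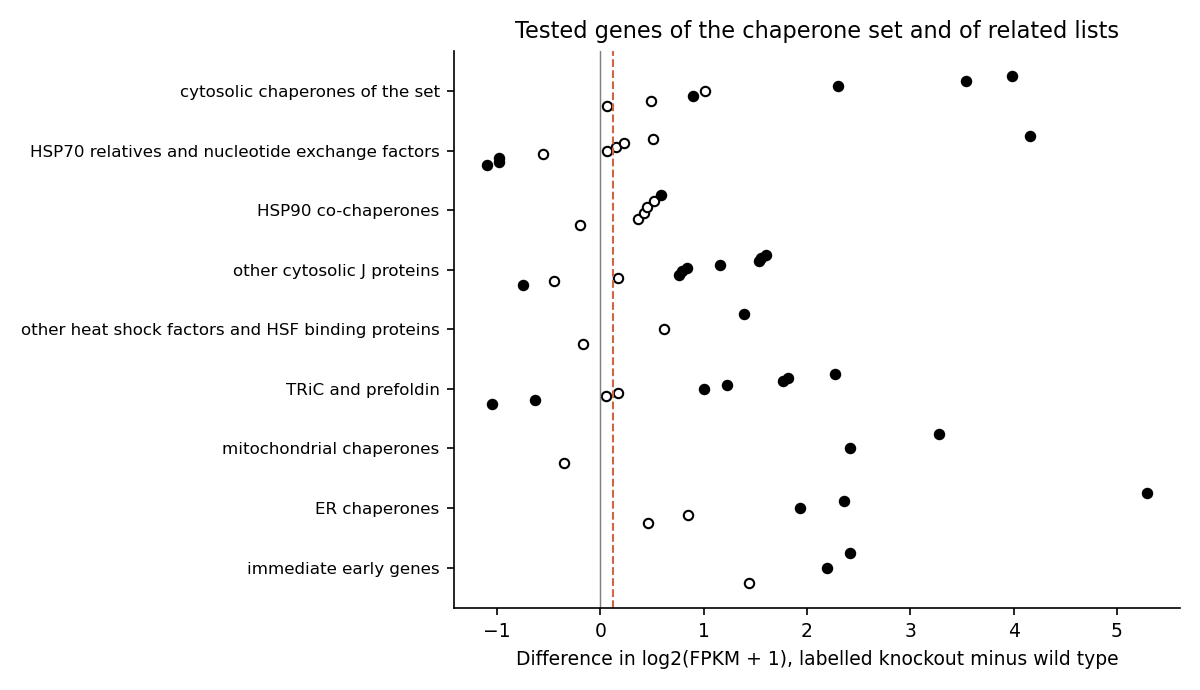
Difference in log2(FPKM + 1), labelled knockout minus labelled wild type, for every tested gene of the chaperone set and of the related lists with a tested gene. Filled points passed an adjusted p of 0.05 (limma) and the dashed line is the median of all tested genes: differences point both ways among HSP70 relatives, J proteins and TRiC with prefoldin.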

How the data were processed

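RNA-seq of 6 liver libraries was deposited as 1 table of FPKM values per library, per the file headers. HISAT2 and GRCm39 are named in the submitters' processing notes. Its version, the counting tool and the annotation the authors used were not given in the sources used here. The header of 1 table carries another sample code than its title, and the label was taken from the title. Identifier and symbol named the same gene in 0 of 24927 rows. Symbols were used: FPKM times exon length (GENCODE M21, GRCm38) gave whole reads to within 0.15 for 98.7% to 99.0% of values up to 40 reads, which also gave the depth. In the chromosome 1 block of 1787 rows that share was 33.0% to 38.6%, so this block and 119 other rows without a symbol were left out. Exon length, GC content and shared 50-base stretches come from M21.

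Log2(FPKM + 1) was fitted with limma 3.58.1 (trend, robust) in R 4.3.3 with labelled genotype as the only term. Genes needed 1 FPKM in 3 libraries. Genes under that filter were read from a fit of all 20529 genes above 0 FPKM. When a library was left out the tested genes stayed the same. Single values were compared by exact permutation. Genes were named as follows: all 10 chaperone genes, up to 4 called genes of each list or the 2 most abundant where none passed, and the 5 genes most like Hspa8. Genes named outside this rule are marked as chosen after their values were seen. Genes and lists were chosen with earlier results of these data known. The alternatives were another pseudocount, other filters and thresholds, median centring, quantile normalization, removal of loess trends (span 0.5) on GC content and length, no robust moderation, a replicate block and leaving out each library. No filter combined with a pseudocount of 0.1 was added after seeing the data. Permutation tests used scipy 1.17.1, figures matplotlib 3.10.9 and tables pandas 2.3.3 and numpy 2.4.6, under Python 3.11.15.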

Additional observations from a re-analysis of the deposited data

How the results depend on the processing

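The count of chaperones called higher was 4 of 7 tested. It was 2 of 4 tested with a filter of 10 FPKM in 3 libraries, which removes Hsp90ab1, Hsph1 and Hspa1b, and between 3 and 6 when each library was left out in turn. Without knockout replicate 1, Hspa1b and Hsp90aa1 were called as well. The count called lower was 0 in each of these counts, but the fits of all genes above 0 FPKM put Hsf1, listed at 0 in 5 libraries, past the threshold as lower after median centring (-0.13, adjusted p = 0.0042) and after the trend removal (-0.11, adjusted p = 0.0050). Hspa4 changed sign, with log2 differences of -0.22 after median centring and -0.22 after removal of the trend on GC content and length. When each library was left out it ran from -0.069 to 0.16, and its difference in mean FPKM ran from -1.73 (without wild type replicate 2) to 4.24 (without knockout replicate 1), with -1.04 without knockout replicate 3. The log2 difference of Hspa1a, 0.035 in the fit without a filter, was -0.087 after median centring and -0.030 after the trend removal. In these fits rows at or near 0 take the shift of the whole library. The cause of the other changes was not tested. The replicate numbers share only a number: same-numbered libraries correlated at -0.049, -0.096 and 0.18 in their deviations from the group means, and not every library correlated best with its own number. With a replicate block 5 chaperones were called higher, Hspa1b being the added one (adjusted p = 0.035), and Dnajb1 lost its call in the fit without a filter. Low read numbers limit Hspa1a, Dnajb1 and Hsf1.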

Other observations

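The libraries labelled knockout did not rank the same way on immediate early genes and on all chaperones. Fos measured 17.9, 2.16 and 12.9 FPKM and Dusp1 27.3, 5.14 and 12.5 FPKM in knockout replicates 1 to 3, with replicate 2 lowest on both. Hspa8 (14.5, 59.5 and 23.7 FPKM) and Hsp90ab1 (9.52, 26.8 and 16.4 FPKM) were highest in replicate 2 and lowest in replicate 1. Hsph1 and Dnaja1 were also highest in replicate 2, whereas Hspa4, Hspa1b, Hsp90aa1 and Dnajb1 were highest in replicate 3. Hspa5 of the endoplasmic reticulum measured 112, 893 and 721 FPKM. No test was made of this ordering.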
